A study of Mus musculus with 7 samples.

Results

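Cytosolic ribosomal protein genes were examined in Pax7-GFP+ cells sorted from mouse hind leg muscle after exposure to normocapnia or hypercapnia. Members were taken by name: every row of the expression table whose symbol starts with Rps or Rpl and a digit, or with Rplp and a digit, except the Rps6k kinases, which gave 29 of 23930 genes. Of these, 16 encode core proteins of the ribosome (9 of the small 40S subunit, 6 of the large 60S subunit and 1 of the stalk), 6 are paralogs, 6 are annotated as processed pseudogenes in GENCODE, and 1, Rps19bp1, encodes a protein that binds a ribosomal protein and is not one itself. The name rule used no measured value. The other core genes, among them Rps6, Rpl5, Rpl11, Rps19 and Rps27, had no row that matched the rule and are not analysed here. Counts and sums for the 40S or 60S subunit therefore cover only part of its genes.

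The 3 normocapnia libraries (NC1 to NC3) and the 4 hypercapnia libraries (HC1 to HC4) came from mice labelled as C57BL in which a tamoxifen-dependent Cre recombinase under the Pax7 promoter switches on the green protein ZsGreen, so that satellite cells, the stem cells of muscle, and their descendants are labelled. The number after the strain name in the genotype labels rises by 1 from library to library, from C57BL/6 to C57BL/12, and the libraries were treated as one strain. All groups shared the reporter and tamoxifen, which was given at 12 weeks of age, were exposed for 4 weeks to room air or to 10% CO2, and were collected at 16 weeks. The study's methods add a cardiotoxin injury to the leg muscles of both groups 3 days before collection. The labels do not mention it. The title of the deposited table gives 40 hours without saying from which event, and the study uses 40 hours for time after isolation in its replication assay. The time after injury thus rests on the methods alone and is not certain from the labels. The labels do not say whether each library is a separate animal, so p-values measure only the spread between these samples. Expression was measured with Ion AmpliSeq, which amplifies 1 short stretch per gene, and is given as RPM, which puts all libraries on one total. Because amplicons differ in efficiency, levels are compared between libraries and not between genes.

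A ribosome joins a small subunit, which reads the mRNA, with a large subunit, which forms the peptide bond, and each ribosomal protein is needed in step with the others and with rRNA. Many ribosomal protein mRNAs begin with a C followed by a run of pyrimidines, the terminal oligopyrimidine (TOP) motif, through which the mTORC1 kinase sets their translation. When a satellite cell leaves quiescence after injury, ribosome production rises before the cell divides. The study followed mTOR signaling by phosphorylation of ribosomal protein S6 and treated mice with rapamycin, while mRNA levels, as measured here, do not show how much of an mRNA is translated.

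Library depth ran from 14527445 to 23388710 reads, with 1 read worth 0.0428 to 0.0688 RPM and 3 reads, taken as the floor, worth 0.128 to 0.207 RPM. NC3 stood apart from the other libraries, with 10619 genes at 1 RPM or more against 11322 to 13932 in the others, and 16.6% of its reads in its 10 most abundant genes against 8.4% to 12.1%. Marker genes of other cells were abundant: the summed RPM of 17 macrophage markers ran from 13203 to 35686 in normocapnia and from 21358 to 26809 in hypercapnia, while that of 15 satellite cell markers ran from 1073 to 5057 and from 1207 to 2161. NC1 was lowest in macrophage and highest in satellite cell markers, and NC3 the reverse. The place of NC3 among the macrophage sums rested on Lyz2, at 29108 RPM there: without it, an alternative chosen after its values were seen, the sums were 4850, 11199 and 6579 RPM in NC1, NC2 and NC3 and 6907 to 10081 RPM in hypercapnia. Pax7 itself stood at 268 RPM in NC1, 8.25 in NC2 and 4.34 in NC3, and between 20.1 and 79.5 RPM in the hypercapnia libraries. By the call used below, 3 of the 17 macrophage markers (Adgre1, Gpnmb and Ms4a7) were higher in hypercapnia and 0 of the 15 satellite cell markers changed in limma, with 0 at an unadjusted p under 0.05 and 1 called lower by both edgeR and DESeq2. The part of this mixture in the results was not tested. In bulk RNA, fewer cells of a type and less RNA per cell cannot be told apart.

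The 5′ ends of annotated coding transcripts were read from GENCODE M21 (GRCm38) for the 16 core genes. A run of at least 5 pyrimidines starting with C at the first base of at least 1 coding transcript was present in 8 of 16, against 5.12% of 21877 genes with coding transcripts. The 5 shown belong to both genes called below (Rpl32 and Rpl30), to the most variable 40S gene (Rps9) and, for contrast, to 2 genes that were not called (Rpl4 and Rps21); the capitals mark the run, read 5′ to 3′ on the transcript strand, and each stretch is the start of the first exon.
Rpl32: CTTCCTTCTTCCTCggcgctgcct
Rpl30: CCTTTCTCgctccccggccatctt
Rps9: CTCTTTgtctcgggcctgagttcg
Rpl4: CTTTTCCTgtgggagcagccgggt
Rps21: CCCTCCTgcccaatagtgctgcgg
These lie at chr6:115808724-115808747 on the minus strand for Rpl32, at chr15:34443199-34443222 on the minus strand for Rpl30, at chr7:3704038-3704061 on the plus strand for Rps9, at chr9:64173375-64173398 on the plus strand for Rpl4 and at chr2:180257377-180257400 on the plus strand for Rps21. Rps2 and Rps3 also had a run. The match depends on the annotated first base, and its absence in the other 8 genes says only that these letters are not at that base.

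Of the 29 members, 2 were lower in hypercapnia and 0 were higher at an unadjusted p under 0.05 with a fold change above 1.5 in the limma fit on log2(RPM + 1), the thresholds of the study. Among all 23930 genes, 2.57% were called by the same rule, 1.14% lower and 1.43% higher. Among the 8229 genes averaging 10 RPM or more, which include 17 members, 2.47% were called lower and 3.07% higher. No member passed an adjusted p of 0.05, the lowest being 0.915, and edgeR and DESeq2 on recovered reads gave 0 as well. At an unadjusted p under 0.05 each of the 3 tools had 2 members. The log2 fold change, hypercapnia over normocapnia, was above 0 for 18 members and below 0 for 11. Their median was 0.13, against 0.02 over all genes, which include 2443 at 0 in every library. Among genes averaging 10 RPM or more the relation was the other way. There the median was −0.11 for the members and 0.13 for all genes, of which 40.5% were below 0.

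**Figure D1:**
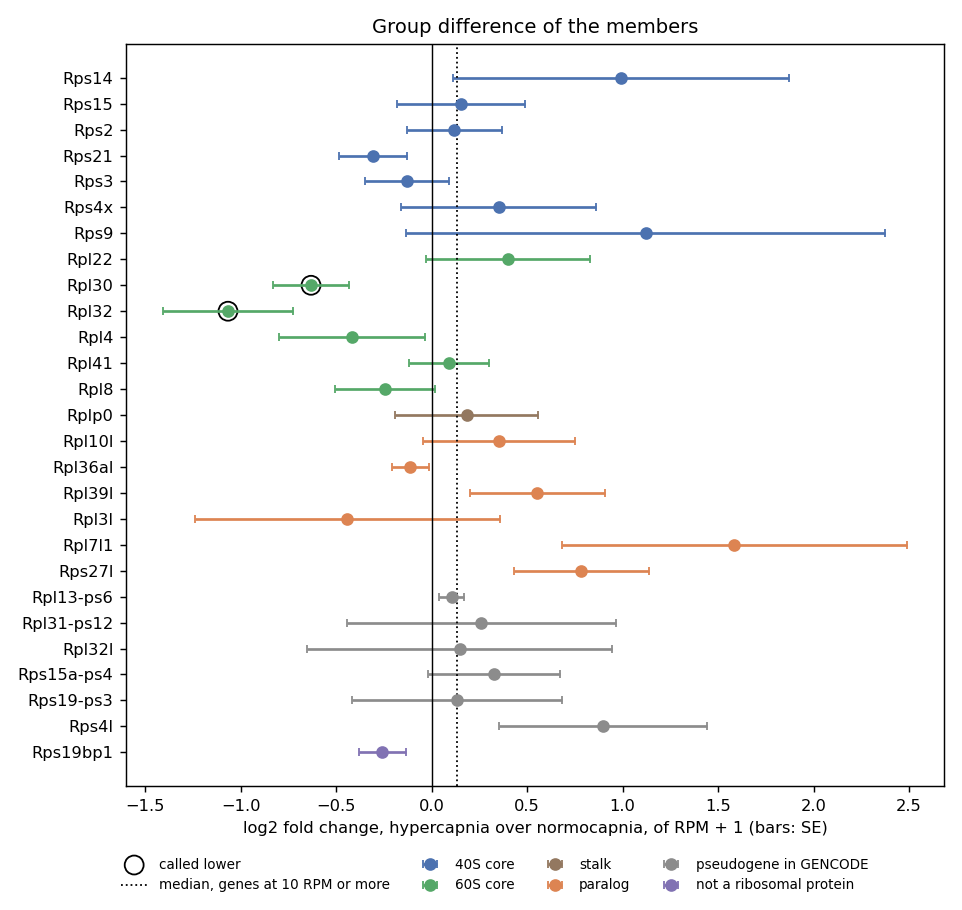
Log2 fold change of 27 of the 29 members, hypercapnia over normocapnia, on the log2(RPM + 1) scale, with bars for the standard error and colors for the kind of gene. The 2 circled 60S genes, Rpl32 at −1.07 and Rpl30 at −0.63, met the call, and the dotted line is the median of 0.13 over genes averaging 10 RPM or more.

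Rpl32, a protein on the solvent side of the 60S subunit, was the member with the largest decrease. The normocapnia libraries held 1655, 985 and 2393 RPM, in the order NC1, NC2, NC3 used throughout, and the hypercapnia libraries 716, 634, 1013 and 693 RPM, in the order HC1, HC2, HC3, HC4. Only NC2 lay within reach of the hypercapnia libraries, below HC3 and above the other 3, so the groups overlapped. The means were 1678 ± 704 RPM (SD, n = 3) and 764 ± 169 RPM (SD, n = 4). Rpl32 fell by 1.07 on the log2 scale (SE 0.34), or 2.09-fold, with an unadjusted p of 0.0224 and an adjusted p of 0.915 (limma), the adjusted p ranging from 0.285 to 0.961 over the alternatives. The call was lost without NC1, NC3, HC1, HC2 or HC4 (unadjusted p = 0.0652, unadjusted p = 0.057, unadjusted p = 0.0531, unadjusted p = 0.0564 and unadjusted p = 0.0546, limma), each time with a log2 fold change between −1.04 and −0.76. NC3 held the highest Rpl32 level while it was the lowest library for 5 of the 12 core genes averaging 10 RPM or more, against 49.5% of all genes at that level.

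Rpl30, a small 60S protein at the interface with the 40S subunit, was the only member whose normocapnia values all lay above its hypercapnia values. Its levels were 62.8, 75.3 and 50.7 RPM in normocapnia and 45.03, 45.9, 39.7 and 30.4 RPM in hypercapnia. Its groups did not overlap, which held in this direction for 4.67% of genes averaging 10 RPM or more and for 2.3% of all genes. Means were 62.9 ± 12.3 RPM (SD, n = 3) and 40.3 ± 7.13 RPM (SD, n = 4), a decrease of 1.55-fold (log2 −0.63, SE 0.20, unadjusted p = 0.0212, adjusted p = 0.915, limma, with adjusted p from 0.455 to 0.961 over the alternatives). The 1.55-fold difference sat just past the threshold of 1.5, and the call was lost without NC1 (unadjusted p = 0.0593), without NC2 (log2 −0.50, unadjusted p = 0.0693) and without HC4 (log2 −0.51, unadjusted p = 0.0316). Direction held in all 17 alternatives, between −0.78 and −0.50.

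The other 60S genes averaging 10 RPM or more were Rpl4, Rpl8 and Rpl41. Rpl4, which reaches into the exit tunnel of the nascent chain, was at 3855, 1784 and 1316 RPM in normocapnia and 1761, 1301, 1608 and 1613 RPM in hypercapnia. NC1 alone was high, and the rest lay together, with a log2 fold change of −0.42 (SE 0.38) that became 0.03 without NC1. Rpl8, close to the peptidyl transferase center, was at 1361, 1153 and 714 RPM against 724, 860, 1098 and 861 RPM (log2 −0.25, SE 0.26). NC3 was the lowest of all 7 libraries for Rpl8, below every hypercapnia value. Rpl41, a very short peptide that bridges the subunits, was at 122 to 205 RPM in normocapnia and 153 to 214 RPM in hypercapnia, with overlapping groups (log2 0.09, SE 0.21, and −0.054 under median-of-ratios scaling). Rpl22, a 60S protein not needed for protein synthesis itself, had low values of 0.138 to 2.63 RPM and 1.29 to 2.81 RPM, and the stalk protein Rplp0, which recruits elongation factors, was at 0.482 to 3.34 RPM and 1.42 to 2.31 RPM.

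Among the 40S genes, 7 averaged 10 RPM or more and none met the call. Rps3, at the mRNA entry channel, was at 1935, 1241 and 1171 RPM in normocapnia and 1209, 1104, 1584 and 1309 RPM in hypercapnia (log2 −0.13, SE 0.22). Rps21 was at 1027, 785 and 700 RPM and at 613, 689, 812 and 578 RPM (log2 −0.31, SE 0.18). In both genes NC1 was the highest library and HC3 the highest of the hypercapnia libraries. Rps15, whose tail lies near the decoding site, was at 2839, 2002 and 1121 RPM against 1765, 1941, 2562 and 2062 RPM (log2 0.15, SE 0.34). NC1 and NC3 bracketed all hypercapnia values of Rps15, and its log2 fold change became −0.21 without NC3. Rps4x, the X-linked copy of Rps4, stayed at 2.05 to 9.28 RPM and 3.62 to 7.94 RPM, and Rps2, at the mRNA entry side, had at most 16 reads in a library and 0 in NC3.

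Rps9 and Rps14 had another order of libraries, with very low values in NC3. Rps9, which helps hold the mRNA entry channel, was at 2441, 2507 and 99.3 RPM in normocapnia and 2594, 2230, 1271 and 1582 RPM in hypercapnia. The NC3 value was 0.0425 times the median of the other libraries, and the lowest and highest libraries were 26.1-fold apart. The log2 fold change was 1.12 (SE 1.25, unadjusted p = 0.409) with NC3 and −0.42 (unadjusted p = 0.264) without it. Rps14, on the platform near the mRNA exit, was at 409, 829 and 66.3 RPM against 639, 709, 529 and 421 RPM. Its log2 fold change went from 0.99 (SE 0.88, unadjusted p = 0.306) to −0.05 without NC3. Together with the paralog Rpl7l1, 3 of the 13 members averaging 100 RPM or more were in NC3 more than 5 times below the lowest other library, a criterion chosen after their values were seen, against 3.93% of 2059 such genes. The cause was not tested.

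**Figure D2:**
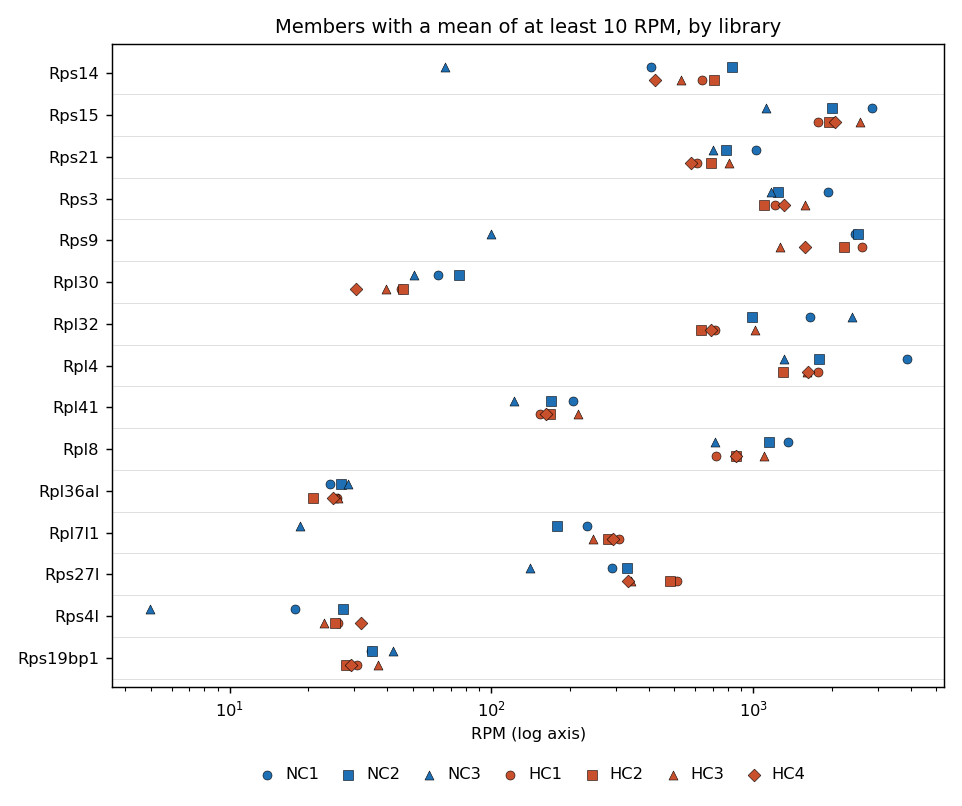
RPM on a log axis in each library for 15 of the 17 members averaging 10 RPM or more, with normocapnia libraries in blue above and hypercapnia libraries in red below each gene's line. The 4 hypercapnia values of most genes lay close together, while NC3 (blue triangle) fell far to the left for Rps9, Rps14, Rpl7l1 and Rps4l and to the right for Rpl32.

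For the 12 core genes averaging 10 RPM or more, the median log2 fold change was −0.18, with 8 genes below 0 and 4 above. The same median over all 8229 genes at this level was 0.13, and 40.5% of them were below 0. NC1 was the highest library for 7 of the 12 genes, against 30.3% of all genes at this level, and a hypercapnia library was the lowest for 7. The spread of log2 values was larger in normocapnia than in hypercapnia for 12 of 12 core genes, against 88.6% of all genes at this level. Without NC3, all 12 had a log2 fold change below 0 with a median of −0.40, beside −0.07 and 57.7% below 0 for all genes at this level. Without NC1 the median was 0.06, with 7 above and 5 below 0, beside 0.27 for all genes. The core median thus changed sign with NC1 but lay under the median of all genes with either library left out, by 0.33 without NC3 and 0.20 without NC1.
Scaling by the median of ratios, which moved the median of all 8229 genes from 0.13 to −0.01, gave a core median of −0.32 with 9 genes below 0. On that scale 6 core genes, among them Rpl30, Rpl32, Rpl4, Rpl8 and Rps21, had groups that did not overlap and were lower in hypercapnia, against 5.2% of all genes at this level. For Rps21, the scaled values were 808, 790 and 999 in normocapnia and 615, 707, 713 and 504 in hypercapnia. Groups apart and higher were left for 1 member, Rpl7l1, against 3.9%. On the RPM scale and after quantile normalization Rpl30 alone was apart and lower, and Rpl7l1 and Rps27l were apart and higher.

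**Figure D3:**
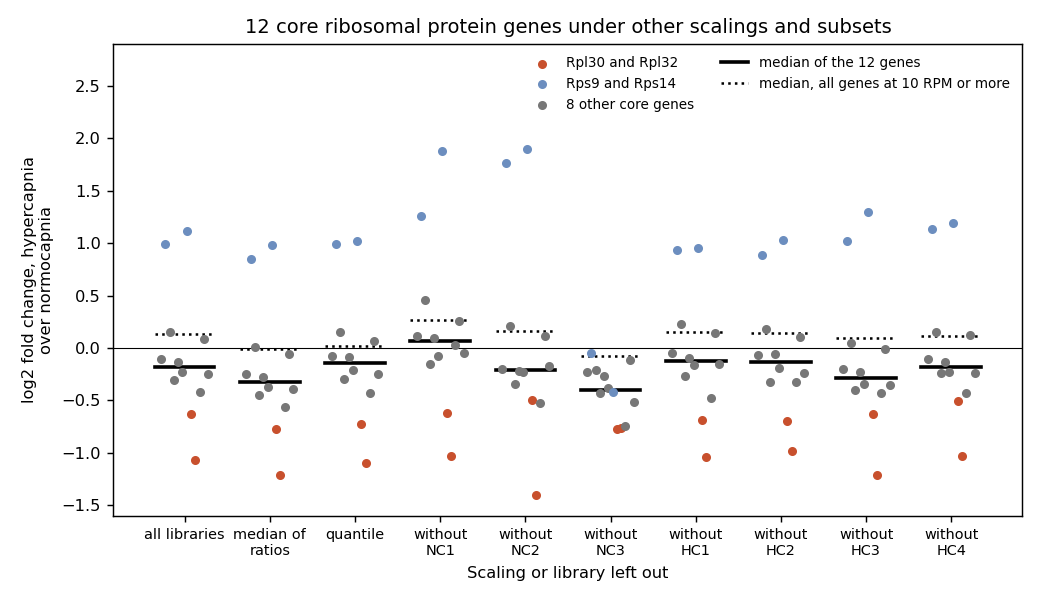
Log2 fold change of the 12 core genes averaging 10 RPM or more (points) with all libraries, under 2 other scalings, and with each library left out; solid bars are their median and dotted bars the median of all genes at that level. The core median lay below the dotted bar in each setting drawn, by 0.16 to 0.38, and crossed 0 without NC1.

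Summed over members, the 29 genes took 1.99%, 1.46% and 1.02% of all reads in normocapnia and 1.32%, 1.27%, 1.44% and 1.24% in hypercapnia. The hypercapnia libraries lay within the normocapnia range, and the means of 1.49% ± 0.486 (SD, n = 3) and 1.32% ± 0.0857 (SD, n = 4) differed by less than the normocapnia SD. The 9 measured genes of the 40S subunit took 1.21%, 0.984% and 0.535% in normocapnia and 0.832% to 0.972% in hypercapnia. The 6 measured genes of the 60S subunit took 0.714%, 0.417% and 0.460% in normocapnia and 0.340%, 0.301%, 0.398% and 0.336% in hypercapnia. These groups did not overlap. This rested on Rpl32: without it, an alternative chosen after its values were seen, the 5 other genes took 0.549%, 0.318% and 0.220% in normocapnia and 0.268%, 0.238%, 0.296% and 0.267% in hypercapnia, with NC3 the lowest library and overlapping groups. The 12 paralogs and pseudogenes, a sum made mostly of Rps27l and Rpl7l1, took 0.0588%, 0.0572% and 0.0202% in normocapnia and 0.0882%, 0.0813%, 0.0647% and 0.0727% in hypercapnia, apart in the other direction. No test was made on these sums.

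**Figure D4:**
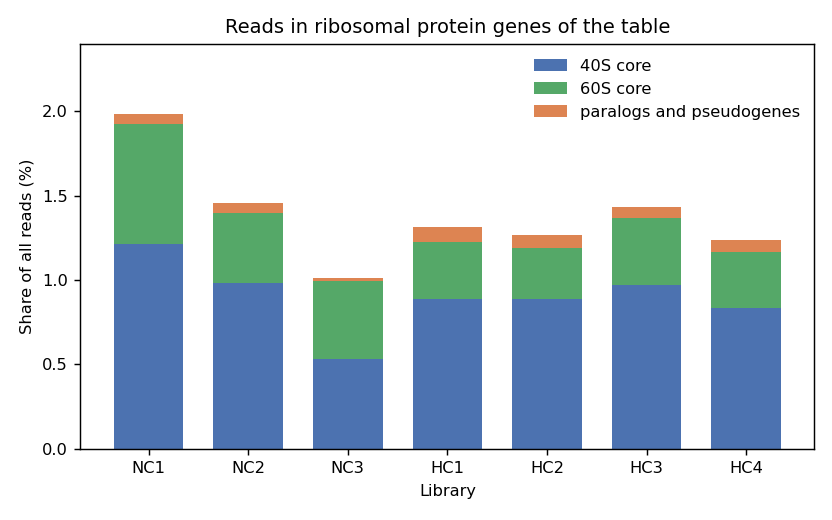
Share of all reads, in percent, taken in each library by the 9 core 40S genes, the 6 core 60S genes and the 12 paralogs and pseudogenes (Rplp0 and Rps19bp1 not drawn). The green 60S part was taller in each normocapnia library than in any hypercapnia library, which no longer held without Rpl32 (0.220% in NC3), while the blue 40S part was tallest in NC1 and shortest in NC3 and the thin orange part was taller in each hypercapnia library.

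None of the 6 paralogs was called. Rps27l, a paralog of Rps27 induced by p53, was at 289, 329 and 140 RPM in normocapnia and 513, 480, 340 and 333 RPM in hypercapnia. All hypercapnia values lay above all normocapnia values, by a narrow margin between NC2 and HC4 (log2 0.78, SE 0.35, unadjusted p = 0.0726, adjusted p = 0.915, limma). Without NC3 the log2 fold change was 0.41 (unadjusted p = 0.152), and without NC2 it was 1.02 (unadjusted p = 0.0483), which meets the call. Rpl7l1, a nucleolar relative of Rpl7, was at 232, 177 and 18.6 RPM and at 307, 279, 243 and 293 RPM, again with groups that did not overlap. Its log2 fold change of 1.59 (SE 0.91, unadjusted p = 0.135) was 0.46 (unadjusted p = 0.0328) without NC3, under the fold threshold. Groups apart in this direction were found for these 2 members, for 4.96% of genes averaging 10 RPM or more and for 2.53% of all genes.
Rpl36al was the steadiest member, at 24.1 to 28.4 RPM in normocapnia and 20.9 to 26.1 RPM in hypercapnia (log2 −0.11, SE 0.10). Rpl3l, the paralog of Rpl3 found in striated muscle fibers, was at 12.2, 3.21 and 2.48 RPM and at 1.58, 0.904, 5.44 and 9.41 RPM. It was highest in NC1 and HC4, the libraries with the highest summed RPM of 15 myofiber markers in each group (7430 and 3447). Rpl39l and Rpl10l, paralogs known from the testis, were at 0.937 to 2.48 and 0 to 0.268 RPM in normocapnia and 1.499 to 4.40 and 0.050 to 1.90 RPM in hypercapnia. Rps19bp1, which binds Rps19, was at 34.8, 35.1 and 42.2 RPM and at 30.7, 27.8, 37.0 and 28.98 RPM (log2 −0.26, SE 0.12), with HC3 above both NC1 and NC2.

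The 6 pseudogene members resemble a coding parent, from 78.6% of 903 aligned bases (Rps4l with Rps4x) to 99.5% (Rpl13-ps6 with Rpl13). Reads of parent and copy may therefore be exchanged, least readily for Rps4l, and their values are uncertain. Such exchange was not tested, and the parents Rps15a, Rpl31, Rps19 and Rpl13 have no values here to compare. HC4 was the highest library for 6 of 6, and for 7 of the 12 members with a mean under 10 RPM. Across detected genes under 10 RPM, HC4 was the highest library in 28.4%, and across 146 detected processed pseudogenes outside the family in 60.3%. Rpl32l, which matches Rpl32 at 97.5% of 398 bases, was at 10.2 RPM in HC4 and at 0.556 to 2.41 RPM in the other libraries. Its library order was not that of Rpl32, which was at 693 RPM in HC4. Rpl31-ps12 was at 7.45 RPM in HC4 and at 0.301 to 1.58 RPM elsewhere, and Rps19-ps3 at 8.13 RPM in HC4 against 1.38 to 7.36 RPM. Rps15a-ps4 was at 2.64 RPM in HC4 and at 0.344 to 1.81 RPM elsewhere. Rps4l was at 17.7, 27.2 and 4.96 RPM in normocapnia and 25.9, 25.2, 23.0 and 31.7 RPM in hypercapnia (log2 0.90, SE 0.54, unadjusted p = 0.155), and met the call without NC2 (log2 1.37, unadjusted p = 0.0448). Rpl13-ps6 was at or under the floor in all libraries. HC4 was also the library with most genes at 1 RPM or more, 13932.

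**Figure D5:**
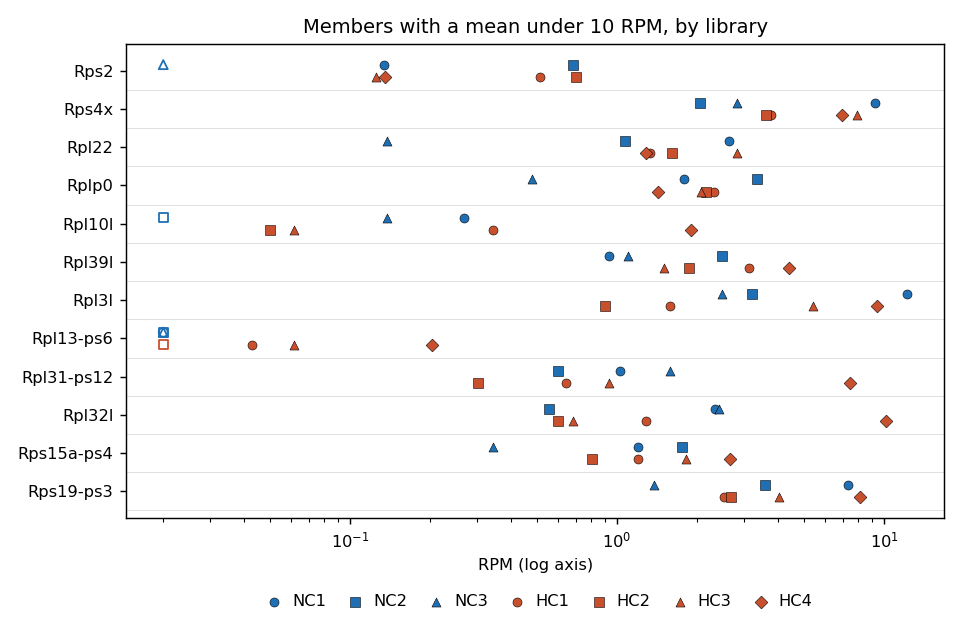
RPM on a log axis in each library for the 12 members with a mean under 10 RPM, normocapnia in blue and hypercapnia in red; open symbols at the left edge are values of 0. HC4 (red diamond) was the highest library for 7 of the 12, among them Rpl32l at 10.2 RPM and Rpl31-ps12 at 7.45 RPM.

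The same call was applied to genes around the ribosome, beside 2.57% of all genes called by limma, 6.03% of those tested by edgeR and 6.25% by DESeq2. Of 21 measured genes for RNA polymerase I and rRNA synthesis and of 90 for ribosome assembly, 0 were called in either direction by limma, with 0 and 1 at an unadjusted p under 0.05. The gene below that p in limma was the assembly gene Utp14a, at 43.4, 40.8 and 58.3 RPM in normocapnia and 33.0, 27.7, 38.5 and 33.7 RPM in hypercapnia (log2 −0.49, SE 0.16, unadjusted p = 0.0259). Other tools called other genes: Rrp8, an rRNA methyltransferase, was called higher by edgeR and DESeq2, and of the 21 RNA polymerase I genes edgeR called Twistnb lower and DESeq2 Twistnb and Polr1a. Rrp8 was at 95.4, 56.9 and 24.6 RPM in normocapnia and 90.95, 86.6, 123 and 161 RPM in hypercapnia, with overlapping groups. Rack1, a 40S protein that the name rule leaves out, was at 4224, 2965 and 2349 RPM and at 2669, 2814, 3295 and 2902 RPM (log2 −0.08, SE 0.21), an order of libraries like that of Rps3 with NC1 highest and HC3 next. Among 14 other TOP mRNAs 0 were called by limma or edgeR and 1 by DESeq2, Pabpc1, the poly(A)-binding protein, which had an unadjusted p of 0.0485 in limma (log2 −0.46, SE 0.18). Naca, a chaperone subunit at the tunnel exit, was at 11.7 RPM in NC3 and 239 to 393 RPM elsewhere.
Of 17 genes between mTORC1 and the ribosome, 1 was called lower by limma and edgeR, Pdcd4, and 2 by DESeq2, Pdcd4 and Mlst8, a subunit of the mTOR complexes. Pdcd4, an inhibitor of the helicase eIF4A that is degraded after phosphorylation by S6 kinase, was at 101, 61.4 and 129 RPM in normocapnia and 26.02, 30.0, 48.7 and 42.6 RPM in hypercapnia, without overlap (log2 −1.36, SE 0.34, unadjusted p = 0.0086, adjusted p = 0.827, limma). Its call was kept in all 17 alternatives, with a log2 fold change from −1.67 to −1.12 and an adjusted p from 0.0845 (DESeq2) to 0.961. Of 10 genes of the MYC network and 10 of the ribosomal protein checkpoint, which acts through p53, 0 were called by limma, edgeR or DESeq2, with 1 and 0 at an unadjusted p under 0.05 in limma. That gene was Mlx, a partner of MYC-related transcription factors, at 65.03, 84.4 and 76.3 RPM in normocapnia and 122, 111, 94.2 and 113 RPM in hypercapnia. Its groups did not overlap, and its log2 fold change of 0.54 (SE 0.12, unadjusted p = 0.00535, adjusted p = 0.752, limma) was under the fold threshold.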

How the data were processed

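The authors prepared AmpliSeq libraries on an Ion Chef, sequenced them on an Ion GeneStudio S5 Plus and deposited 1 table of RPM for the 7 libraries. The sources used here do not give the aligner or the genome build. Every column was assigned to a sample by the barcode in the sample's description. Whole reads were recovered from the RPM steps (100% of values whole, tolerance 0.05 reads) and gave the totals above. Intervals and floors cover counting error only. All genes were fitted with limma 3.58.1 (R 4.3.3) on log2(RPM + 1) with empirical Bayes moderation and no filter, and a gene was called at an unadjusted p under 0.05 and a fold above 1.5. Adjusted p-values are Benjamini-Hochberg over 23930 genes. This called 615 genes, and edgeR 4.0.16 on the recovered reads called 802 with a filter and DESeq2 1304. Fold changes on the log2(RPM + 1) scale understate those of low genes. The fit was tested on simulated counts with the same spread in both groups. In these data the spread was larger in normocapnia for 88.6% of genes averaging 10 RPM or more, which that simulation does not cover.

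Members named were those called, the 5 with the largest positive and negative log2 fold changes and the 5 most abundant above a mean of 10 RPM, the 5 with the smallest p, and every paralog and pseudogene; remaining members were added. Values of 2 members are not reported here, although counts, medians and sums include them. From the related lists, called genes and those with the smallest p were named, and Rack1; Naca, and the genes called only by other tools, were chosen after their values were seen. Members and lists were chosen with earlier results of these data known. Alternatives were pseudocounts of 0.1 and 5 RPM, removal of genes averaging under 1 RPM, quantile and median-of-ratios scaling, a prior following the mean, edgeR, DESeq2 1.42.0, each library left out, and a replicate block. Sequences came from GENCODE M21.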

Additional observations from a re-analysis of the deposited data

Results flagged for a closer look

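In each member the hypercapnia group of 4 was examined for a library far from the other 3, by the gap to the nearest library as a share of the whole range (Dixon's test). Of 29 members 3 passed its critical value. The test flags about 1 in 20 groups by chance only for normal values and independent groups. These were RPM values of members that share their libraries, and the share flagged over all genes was not computed. The 3 flags thus cannot be set against that rate. HC4 was far above the others each time, with a share of 0.929 for Rpl32l (10.2 RPM against at most 1.28), 0.911 for Rpl31-ps12 (7.45 RPM against at most 0.937) and 0.842 for Rpl10l (1.90 RPM against at most 0.342). The cause was not tested.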

How the results depend on the processing

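The count of members called lower was 1 instead of 2 with a pseudocount of 5 RPM, without genes averaging under 1 RPM and with a replicate block, Rpl32 being the one kept each time, and 0 to 2 with single libraries left out. The count called higher was 1 instead of 0 after quantile normalization and with the replicate block (Rps27l both times), and 0 to 2 with single libraries left out. Over all 23930 genes the 615 calls moved too, to 1990 without NC1, 1205 without NC2, 385 without HC1, 376 without HC2, 438 with a pseudocount of 5 RPM, 693 after quantile normalization and 598 with the block, and to 558 of 12504 without genes averaging under 1 RPM, so counts of members are to be read beside these. Deviations of same-numbered libraries from their group means correlated at −0.32, 0.50 and −0.01. In groups this small the deviations are tied to each other, so these values cannot settle whether the libraries were paired. The median log2 fold change of the 29 members, 0.13, was −0.037 after quantile normalization and −0.11 to 0.26 with single libraries left out. Members with groups apart numbered 6 lower and 1 higher under median-of-ratios scaling, and 1 to 4 lower and 2 to 5 higher with single libraries left out. With fewer libraries any gene has groups apart more easily, and the share over all genes was not counted for these subsets. The rise is thus not a result about the members. The difference in the share of reads, −0.171 percentage points, ran from −0.407 to 0.079 with single libraries left out. With single libraries left out, log2 fold changes that reversed ran from −0.747 to 0.028 (Rpl4), −0.265 to 0.097 (Rps3) and −0.87 to 0.156 (Rpl3l), above 0 without NC1. They ran from −0.421 to 1.901 (Rps9), −0.047 to 1.766 (Rps14), −0.209 to 0.461 (Rps15), −0.227 to 0.547 (Rplp0), −0.024 to 0.813 (Rpl22), −0.037 to 0.339 (Rps2) and −0.111 to 0.26 (Rpl41), below 0 without NC3 and, for Rpl41, without HC3. They ran from −0.339 to 0.561 (Rpl31-ps12, below 0 without HC4), −0.504 to 0.429 (Rpl32l, below 0 without HC4 or NC2) and −0.326 to 0.581 (Rps19-ps3, below 0 without HC4 or NC3). Quantile normalization reversed Rpl31-ps12 (−0.067), Rpl32l (−0.048), Rps19-ps3 (−0.102) and Rplp0 (−0.037). The replicate block, which leaves out HC4, reversed Rpl31-ps12 (−0.339), Rpl32l (−0.504) and Rps19-ps3 (−0.16). Rpl41 reversed under median-of-ratios scaling (−0.054), edgeR with a filter (−0.006, and 0.001 without the filter) and DESeq2 (−0.046). The causes were not tested. Depth limits Rps2, Rpl10l and Rpl13-ps6, which rest on few reads, and with 3 and 4 libraries no member passed the adjustment over all genes in any of these fits.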

Other observations

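Over the 7 libraries, the mean log2(RPM + 1) of the 16 core genes came to 7.96, 7.66 and 6.82 in normocapnia and 7.46, 7.48, 7.67 and 7.38 in hypercapnia. Among genes outside the family averaging 10 RPM or more, the 5 whose levels correlated most with it were Vhl (Pearson r = 0.994), Qsox1 (0.993), Mtmr1 (0.991), Prkrir (0.988) and Ccser2 (0.985). The points share their depth and the mixture of cells in each library, and NC3 was the lowest library for the core mean and for all 5 genes.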
